A study of Mus musculus with 12 samples.

Results

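The genes described here are 47 lysosome and autophagy genes, taken by symbol from the 24419 genes of the raw count table: 9 cathepsins and other peptidases, 11 glycosidases and sulfatases, 6 lipid-handling enzymes and cofactors, 6 membrane proteins of the lysosome, 4 proton pump genes, the transcription factors Tfeb and Tfe3, and 9 autophagy genes. All 47 were present in the table, and all 47 passed the filter on low counts that left 15759 genes for testing. The study made mouse embryonic fibroblasts (MEFs) that carry an Nras allele with 1 of 4 codons at position 61, and asked how the encoded amino acid shapes the transcriptome. RNA was sequenced from 12 libraries, 3 per genotype, each from a separate MEF line. The genotypes were homozygous arginine (61R/R), histidine (61H/H), proline (61P/P) and wild-type glutamine (61Q/Q). All were on a C57BL/6 background of the TN strain (a Tyr::CreERT2 transgene and an Nras knock-in allele behind a loxP-STOP-loxP cassette), and all MEFs, the 61Q/Q controls included, were infected at passage 3 with a Cre adenovirus carrying eGFP (Ad5-CMV-Cre-eGFP) and harvested 6 days later. Exposure to the virus was thus shared by every group. Excision starts expression of each Nras allele, and its extent was not compared between the lines here. The Tyr promoter of the transgene is active in melanocytes, and excision in these MEFs was by the adenovirus. The study classed 61R/R and 61H/H as melanomagenic and 61P/P and 61Q/Q as not.

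Lysosomes are acidic organelles in which hydrolases break down proteins, glycans and lipids that arrive by endocytosis or by autophagy, the process that wraps cytoplasm in a double membrane and delivers it for digestion. A vacuolar ATPase pumps protons into the lumen, membrane proteins such as the LAMPs line and protect the boundary, and the mTORC1 kinase is switched on at the lysosome surface. Tfeb and Tfe3, bHLH-zipper transcription factors that mTORC1 keeps in the cytoplasm, activate many of these genes through an E-box of the form TCACGTGA, and lysosomes of fibroblasts also take part in the turnover of collagen.

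Promoters were searched for that element because the genes are commonly treated as targets of 1 regulator. RefSeq promoters (GRCm38.p6, 250 bases before to 50 bases after the annotated start) were found for 40 of the 47 genes. The E-box core CACGTG was present on at least 1 promoter of 17 of the 40 genes (42.5%), against 8.09% of the 27025 genes with a promoter. The longer TCACGTGA, which contains that core, was present in 7 of 40 (17.5%), against 1.12% of all genes. Both motifs read the same on either strand. The 7 genes were Atp6v0d1, Atp6v1a, Cln3, Ctsa, Ctsd, Gla and Mcoln1. A match describes the letters in these windows and does not show binding. Each site is given 5′ to 3′ on the gene's strand with 15 bases on either side and the motif in capitals, for 4 of the genes.
Ctsd, chr7:142387904-142387941, minus strand: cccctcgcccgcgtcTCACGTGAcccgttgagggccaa
Ctsa, chr2:164833745-164833782, plus strand: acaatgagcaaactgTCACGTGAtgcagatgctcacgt
Ctsa, chr2:164833762-164833799, plus strand: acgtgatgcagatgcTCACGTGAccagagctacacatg
Mcoln1, chr8:3500458-3500495, plus strand: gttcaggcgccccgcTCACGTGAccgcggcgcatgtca
Atp6v1a, chr16:44139369-44139406, minus strand: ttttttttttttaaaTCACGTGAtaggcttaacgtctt
Cln3 and Atp6v0d1 are shown over the whole 300 bases, because both hold the motif and the mean levels of their transcripts lay on opposite sides of the wild type in 61H/H and 61R/R.
Cln3, chr7:126583187-126583486, minus strand: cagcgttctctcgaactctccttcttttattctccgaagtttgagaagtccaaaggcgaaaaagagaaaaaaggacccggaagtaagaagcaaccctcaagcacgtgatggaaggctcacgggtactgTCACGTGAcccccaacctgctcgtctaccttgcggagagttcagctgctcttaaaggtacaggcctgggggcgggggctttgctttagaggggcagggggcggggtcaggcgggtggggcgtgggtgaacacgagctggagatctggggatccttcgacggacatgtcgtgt
Atp6v0d1, chr8:105566015-105566314, minus strand: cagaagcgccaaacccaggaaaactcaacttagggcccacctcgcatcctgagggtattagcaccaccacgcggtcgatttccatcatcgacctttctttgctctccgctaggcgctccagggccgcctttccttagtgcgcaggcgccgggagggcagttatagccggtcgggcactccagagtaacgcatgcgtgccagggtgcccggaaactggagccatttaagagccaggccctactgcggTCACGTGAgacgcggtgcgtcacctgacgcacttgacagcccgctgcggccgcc

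Sequencing depth was 73222911 to 92179519 counts per library, and the common dispersion of the model corresponded to a biological coefficient of variation of 15.7%. The 45S pre-ribosomal transcript Rn45s took 8.89 to 13.9% of the counts. Nras itself stood at 88.1 to 126 CPM (a gene's counts relative to the TMM-scaled total of its library), and its level was not a check of the codon. Fibroblast markers summed to 21916 to 64753 CPM, whereas markers of melanocytes summed to 0.674 to 2.01 CPM, of epithelium to 2.08 to 9.53 CPM and of endothelium to 7.41 to 13.6 CPM. In 3 genotypes, 1 library stood apart over all genes, by the chi-square of the counts per gene between each pair of replicates. For 61R/R replicate 1 it was 185 and 135 against replicates 2 and 3, which differed from each other by 38.2. For 61P/P replicate 1 it was 89.4 and 141, where replicates 2 and 3 differed by 19.1. For 61Q/Q replicate 2 it was 112 and 89.4, where replicates 1 and 3 differed by 35.2. The latter was also the lowest wild-type library for 41 of the 47 genes. Counts of calls are also given without these libraries.

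After TMM scaling, the summed level of the 47 transcripts was lower in every mutant library than in any wild-type library. Summed over all 47, they reached 8244, 7163 and 8529 CPM in the 61Q/Q libraries, 6411, 7007 and 6773 CPM in 61P/P, 6518, 6858 and 6942 CPM in 61H/H and 7030, 6384 and 6551 CPM in 61R/R. The groups came nearest in 61R/R replicate 1 and 61Q/Q replicate 2, which both stood apart. The members made up 0.658 to 0.785% of all counts. By this share, taken without TMM scaling, wild-type and mutant libraries overlapped. The share of 61Q/Q replicate 2 was 0.685%. That was below 61P/P replicate 2 (0.705%), 61H/H replicates 2 (0.702%) and 3 (0.718%) and 61R/R replicate 1 (0.690%). In bulk RNA, a smaller share of a cell type and less RNA per cell cannot be told apart. Macrophage markers moved in the same direction. Their sum over 18 genes was 457, 313 and 473 CPM in 61Q/Q, 411, 161 and 266 CPM in 61P/P, 160, 238 and 250 CPM in 61H/H and 272, 183 and 334 CPM in 61R/R. All 18 were detected. Called lower were 11 in 61H/H (61.1%, against 14.5% of all tested genes), 2 in 61R/R (11.1%, against 9.59%) and 2 in 61P/P (11.1%, against 3.69%). The share in 61R/R was near that of all genes. Higher calls numbered 0, and the part of the macrophage markers in the result was not tested. Within 61Q/Q and within 61H/H, the libraries had the same order by macrophage sum as by member sum, and within 61P/P and 61R/R they did not. Of 12 fibroblast markers, 7 were called lower and 2 higher in 61H/H, 6 lower and 1 higher in 61R/R, and 1 lower and 0 higher in 61P/P. The lower calls were 58.3, 50 and 8.33% of that list, against 14.5, 9.59 and 3.69% of all tested genes. The higher calls were 16.7, 8.33 and 0%, against 13.8, 9.43 and 3.15%.

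**Figure D1:**
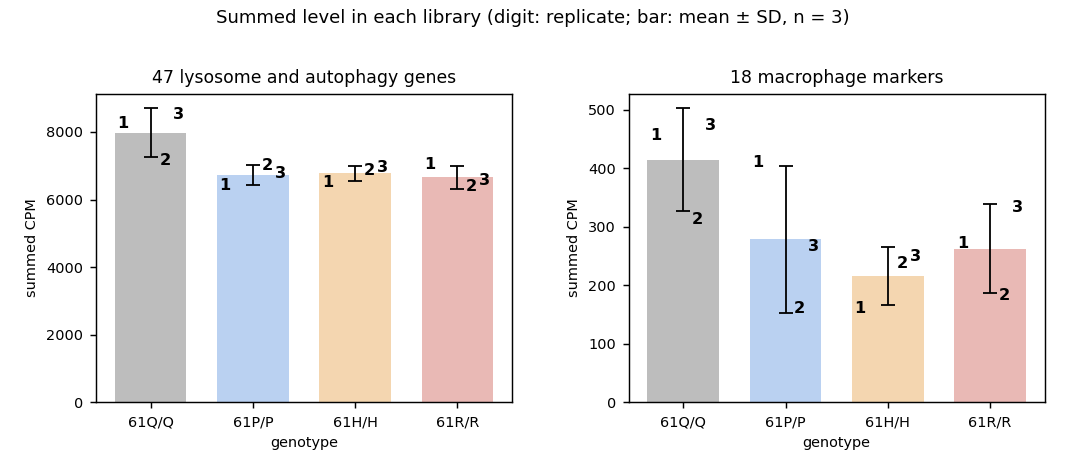
Summed CPM of the 47 lysosome and autophagy genes (left) and of 18 macrophage markers (right) by genotype; digits are replicates, bars the mean and SD of 3 libraries. The 61Q/Q libraries held 7163 to 8529 CPM of the 47 genes and all 9 mutant libraries 6384 to 7030 CPM, whereas the macrophage sums of 61Q/Q (313 to 473 CPM) overlapped with those of 61P/P (161 to 411 CPM) and 61R/R (183 to 334 CPM) and not with those of 61H/H (160 to 250 CPM).

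A gene was called at an adjusted p under 0.05 from edgeR's quasi-likelihood test over all genes. Against 61Q/Q, 17 of 47 members were called lower in 61R/R and 0 higher, where 9.59% of all tested genes were lower and 9.43% higher. In 61H/H, 20 members were lower and 2 higher, against 14.5% of all genes lower and 13.8% higher. For 61P/P, 4 were lower and 1 was higher, against 3.69% of all genes lower and 3.15% higher. These 3 comparisons share the 61Q/Q libraries and are not independent of each other. The median log2 fold change of the members was -0.17 in 61H/H, -0.16 in 61R/R and -0.21 in 61P/P, while that of all tested genes was 0.0083, 0.0067 and 0.010. In the same order of genotypes, signs were negative for 37, 44 and 41 of the 47 genes. The changes were small, since 2, 1 and 2 of the called members reached 1.5-fold.

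Libraries of the groups separated for many of the members. All 3 61R/R libraries lay below all 3 wild-type libraries for 23 members (48.9%), against 19.2% of all tested genes. For 61H/H this held for 22 members (46.8%), against 23.5% of all genes, and for 61P/P for 17 members (36.2%), against 14.8%. All 9 mutant libraries were below the wild type for 13 members, against 7.96% of all genes. These were Ctsa, Ctsk, Ctsz, Gaa, Hexa, Man2b1, Asah1, Lamp1, Lamp2, Atp6v1h, Atp6ap1, Rb1cc1 and Sqstm1. The opposite order, all 9 above, was seen for Gusb alone, against 5.88% of all genes.

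Between the mutant genotypes, no member was called. In 61R/R against 61P/P, 0 of 47 passed, with 1.85% of all genes higher and 1.60% lower. An unadjusted p under 0.05 was seen for 9 of 47 members and for 3661 of all 15759 genes. In 61H/H against 61P/P, 0 passed as well, with 1.47% of all genes higher and 1.02% lower. Again 9 members had an unadjusted p under 0.05, beside 3878 of all genes. DESeq2 called 2 and 4 members in these comparisons, and 1670 and 1852 of all 15759 genes. In 61R/R against 61H/H, 0 members passed in edgeR, DESeq2 and limma-voom alike, and 0 of all 15759 genes passed in edgeR. An unadjusted p under 0.05 was seen for 1 member and for 778 of all genes. The contrast of the classes, the mean of 61R/R and 61H/H against the mean of 61P/P and 61Q/Q, called 15 members lower and 2 higher, against 14.6 and 14.2% of all genes, and its median was -0.11 over the members.

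Single libraries moved these counts. The 61R/R calls fell to 0 when the fit lacked replicate 1 or 3 of 61Q/Q, or replicate 2 or 3 of 61R/R. In each of those fits, 0 of all tested genes were called in this comparison as well. The member calls grew to 28 when the fit lacked replicate 2 of 61Q/Q. There 4538 of 15986 genes were called, against 2997 of 15759 in the fit of all 12 libraries. For 61H/H, there were 5 calls without replicate 1 or 3 of 61Q/Q or replicate 1 of 61H/H, and 9 without replicate 2 of 61H/H. Over all genes, the 61H/H calls went from 4451 to 2173, 1879, 2198 and 2466 in these fits, in the same order. The member calls in 61H/H that held in all 12 fits without 1 library were those of Ctsk, Hexa, Arsa, Lamp2 and Gusb. For 61P/P, the 5 calls became 0 when replicate 1 or 3 of 61Q/Q or replicate 2 of 61P/P was omitted, 1 for replicate 1 of 61P/P, and 2 for replicate 2 or 3 of 61H/H or replicate 3 of 61R/R. They rose in number to 12 on omission of replicate 1 of 61R/R and to 22 on omission of replicate 2 of 61Q/Q. Over all genes, the 61P/P calls numbered 1079 in the fit of all 12 libraries. In the order named, the fits gave 58, 0, 5, 224, 555, 644, 584, 1764 and 2397 such calls. The 17 calls between the classes fell to 6 on omission of replicate 3 of 61Q/Q or replicate 2 of 61R/R. They fell to 7 for replicate 1 of 61Q/Q, replicate 1 of 61H/H or replicate 3 of 61R/R. For replicate 2 of 61H/H they fell to 9, and for replicate 2 of 61P/P to 10. Over all genes, 4537 were called between the classes in the fit of all 12 libraries. The fits named gave 2828, 2730, 2854, 3230, 2644, 2999 and 3545, in this order. Further fits were chosen after seeing the data. With replicate 1 of 61R/R and replicate 1 of 61P/P omitted and every wild-type library kept, 25 members were called in 61H/H, 23 in 61R/R and 7 in 61P/P, with medians of -0.17, -0.20 and -0.18, and 22 between the classes. Of 15891 genes, 5680, 5256, 1469 and 5237 were called there, in the same order. When replicate 2 of 61Q/Q was omitted as well, the members called were 31 in 61H/H, 35 in 61R/R and 28 in 61P/P, and 28 between the classes. Of 15854 genes, 7129, 6958, 4085 and 6894 were called. Omission of 61Q/Q replicate 2 with replicate 1 of 61R/R alone gave 28 members in 61H/H, 30 in 61R/R and 25 in 61P/P, and 24 between the classes. Of 15938 genes, this called 5892, 5590, 3190 and 6465. That wild-type library held the lowest wild-type values of most members, and its omission raises their wild-type mean. When it alone was omitted, calls over all genes grew as well, from 2997 to 4538 in 61R/R and from 1079 to 2397 in 61P/P. The cause of the larger counts without 61Q/Q replicate 2 was not tested, and they are no support for the lower calls.

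**Figure D2:**
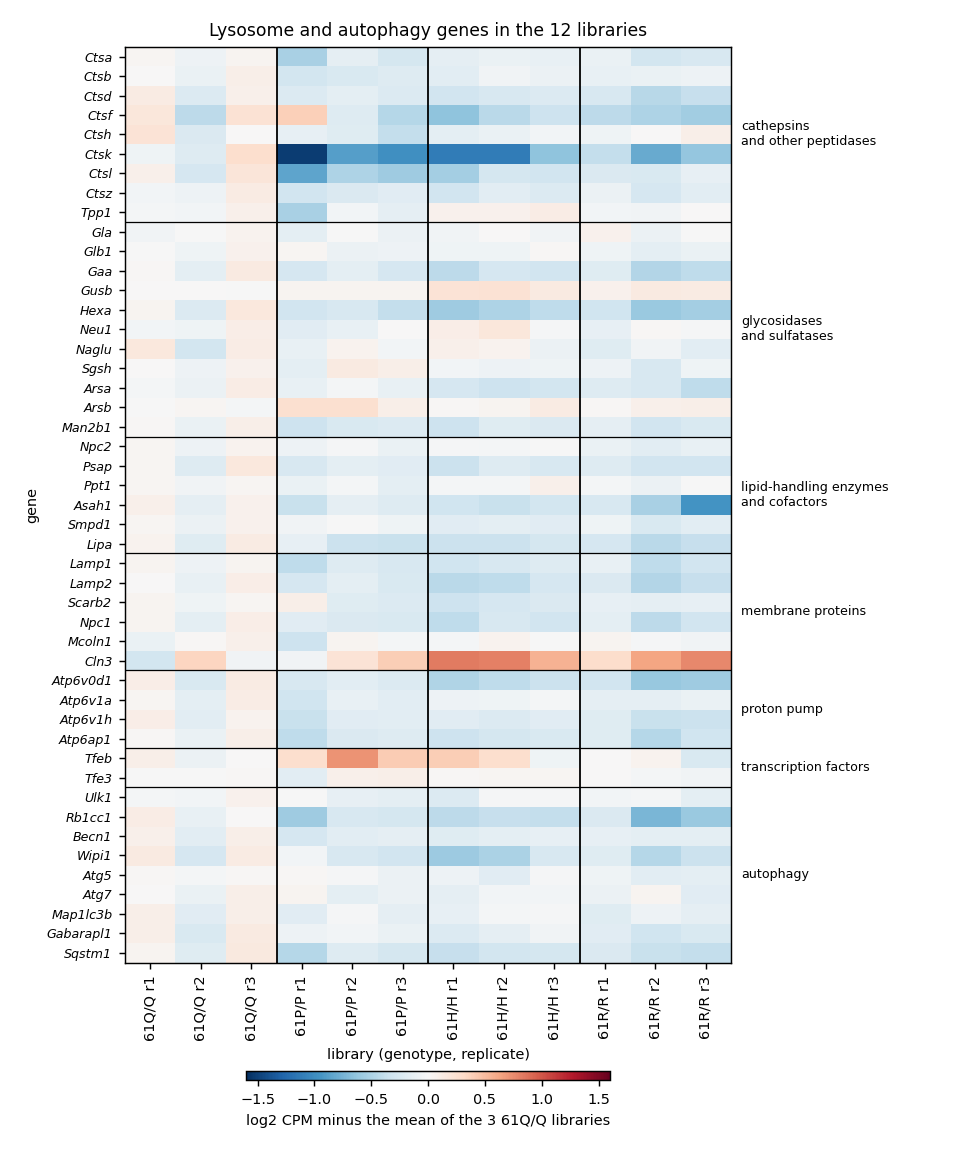
Level of each member in each library as log2 CPM minus the mean of the 3 61Q/Q libraries, with rows ordered by role. Blue prevails in the 9 mutant columns, 61Q/Q replicate 2 is bluer than the other wild-type libraries, and the strongest red is that of Cln3 in 61H/H and 61R/R and of Tfeb in 61P/P.

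Per base of transcript, the most abundant members over the 12 libraries were Ctsd (451 RPKM, counts scaled by depth and transcript length), Lamp1 (310 RPKM), Psap (265 RPKM), Ctsl (217 RPKM), Sqstm1 (149 RPKM) and Ctsb (123 RPKM). At the other end stood Tfeb with 1.60 RPKM and Cln3 with 3.85 RPKM.

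Among the 9 cathepsins and other peptidases, 4 were lower in 61H/H, 2 in 61R/R and 3 in 61P/P, and 0 were higher. These are 44.4, 22.2 and 33.3% of the list, against 14.5, 9.59 and 3.69% of all tested genes lower. Ctsk (chr3:95499210-95509387, mm10), the cysteine protease that cleaves native collagen, changed most of all members. It measured 53.5, 48.6 and 67.7 CPM in 61Q/Q, 19.6, 30.3 and 28.3 CPM in 61P/P, 25.8, 25.7 and 35.9 CPM in 61H/H and 42.9, 32.1 and 36.6 CPM in 61R/R. All 9 mutant libraries lay below the lowest wild-type library, and 61P/P replicate 1 was the lowest of all. Its log2 fold change was -1.12 ± 0.19 (SE), adjusted p = 0.0188 in 61P/P, -0.96 ± 0.19 (SE), adjusted p = 0.00652 in 61H/H and -0.61 ± 0.19 (SE), adjusted p = 0.0471 in 61R/R. The mutants were not called different from each other for this gene, with adjusted p = 0.144 for 61R/R against 61P/P and 0.992 for 61R/R against 61H/H. Ctsk is also a marker of osteoclasts, and the osteoclast list of 6 genes had the same order of genotype means as Ctsk, 29.6 CPM summed in 61Q/Q, 17.4 CPM in 61R/R, 7.49 CPM in 61H/H and 6.51 CPM in 61P/P. Single libraries ranged from 3.13 to 46.8 CPM, and Mmp9 gave 45.7 CPM of the highest, 61Q/Q replicate 2. The log2 fold change of Mmp9 was -2.15 ± 0.84 (SE) in 61H/H, -0.80 ± 0.81 in 61R/R and -2.41 ± 0.86 in 61P/P. Acp5 had the reverse order among the mutants, at -0.35 ± 0.41 in 61H/H, -0.40 ± 0.41 in 61R/R and -0.021 ± 0.41 in 61P/P. Oscar was nearly equal in 61H/H (-0.47 ± 0.41) and 61R/R (-0.49 ± 0.41), and had -1.54 ± 0.44 in 61P/P. Of the 6 markers, 3 were tested and 0 called against 61Q/Q, and their part in the change of Ctsk was not tested.

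Ctsl, a broad cysteine endopeptidase, fell in 61P/P (log2 fold change -0.64 ± 0.12 (SE), adjusted p = 0.0236) and in 61H/H (-0.39 ± 0.12 (SE), adjusted p = 0.0366), and had -0.22 ± 0.12 (SE), adjusted p = 0.224 in 61R/R. Its libraries held 289.7, 369.8 and 349 CPM in 61P/P against 550.2, 429 and 591 CPM in 61Q/Q, without overlap. Ctsb, another cysteine protease, fell in 61P/P (-0.25 ± 0.058 (SE), adjusted p = 0.0316) and was called in neither other mutant, and 16.3% of its exon bases lie opposite Fdft1. For Ctsd, the abundant aspartic protease, the calls were in 61R/R (-0.36 ± 0.087 (SE), adjusted p = 0.0231) and 61H/H (-0.27 ± 0.087 (SE), adjusted p = 0.0381). The carboxypeptidase Ctsz fell in 61H/H (-0.24 ± 0.071 (SE), adjusted p = 0.0303), and the cysteine protease Ctsf was called only between the classes (-0.46 ± 0.15 (SE), adjusted p = 0.0370). Ctsa, which shields Neu1 and Glb1 from degradation, the aminopeptidase Ctsh and the tripeptidyl peptidase Tpp1 were called in none of the 7 comparisons. Ctsa was nonetheless below the wild type in all 9 mutant libraries, and 22.6% of its exon bases lie opposite Neurl2 or Pltp.

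Of the 11 glycosidases and sulfatases, 4 were lower in 61R/R and 0 higher, 4 were lower and 1 was higher in 61H/H, and 1 was lower and 1 higher in 61P/P. In that order, 36.4, 36.4 and 9.09% of the list were lower, against 9.59, 14.5 and 3.69% of all genes. The 1 higher is 9.09% of the list, where 13.8% of all genes were higher in 61H/H and 3.15% in 61P/P. The 4 that fell in 61R/R, namely Hexa, Arsa, Gaa and Man2b1, were also the 4 that fell in 61H/H. Hexa (chr9:59539667-59565105), the α subunit of β-hexosaminidase that clears ganglioside, held 120.2, 99.7 and 131 CPM in 61Q/Q, 93.7, 97 and 89.2 CPM in 61P/P, 78.5, 82.4 and 88.1 CPM in 61H/H and 93.5, 77.2 and 79.7 CPM in 61R/R. Its 9 mutant libraries were all below the wild type, with 61P/P replicate 2 nearest to it. The log2 fold change was -0.49 ± 0.10 (SE), adjusted p = 0.0194 in 61R/R, -0.50 ± 0.10 (SE), adjusted p = 0.00700 in 61H/H and -0.33 ± 0.10 (SE), adjusted p = 0.0720 in 61P/P. Arsa, the sulfatase of sulfatide, gave the smallest adjusted p of any member, between the classes (-0.25 ± 0.047 (SE), adjusted p = 0.00517). Its values were 47.2, 45.1 and 52.2 CPM in 61Q/Q, 44.4, 46.9 and 44.4 CPM in 61P/P, 39.8, 38.1 and 39.4 CPM in 61H/H and 41.6, 40.3 and 36.3 CPM in 61R/R. Here the 61P/P libraries overlapped with the wild-type ones, and the 6 libraries of 61H/H and 61R/R were below both. Arsa fell in 61R/R (-0.29 ± 0.066 (SE), adjusted p = 0.0210) and 61H/H (-0.30 ± 0.066 (SE), adjusted p = 0.00926), and 61P/P had -0.09 ± 0.066 (SE), adjusted p = 0.415. The direct tests against 61P/P did not pass, with adjusted p = 0.113 in 61R/R and 0.0893 in 61H/H.

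Gaa, the acid α-glucosidase that degrades glycogen, was at 221, 196 and 243 CPM in 61Q/Q, 182, 196 and 182 CPM in 61P/P, 165, 181 and 177 CPM in 61H/H and 192, 159 and 166 CPM in 61R/R. The mutant libraries were below the wild type, narrowly so for 61P/P replicate 2, and the gene fell in 61R/R (-0.36 ± 0.089 (SE), adjusted p = 0.0251) and 61H/H (-0.34 ± 0.089 (SE), adjusted p = 0.0185). Man2b1, the acid α-mannosidase, was with Ctsk 1 of 2 members called in all 3 mutants. It read 93.4, 85.2 and 97.9 CPM in 61Q/Q, 73.2, 77.9 and 78.8 CPM in 61P/P, 73, 80.2 and 78.6 CPM in 61H/H and 82.9, 74.3 and 77.4 CPM in 61R/R. No mutant library reached the wild-type range, and the log2 fold changes were nearly equal, -0.24 ± 0.067 (SE), adjusted p = 0.0348 in 61R/R, -0.25 ± 0.067 (SE), adjusted p = 0.0182 in 61H/H and -0.27 ± 0.067 (SE), adjusted p = 0.0407 in 61P/P.

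Gusb, β-glucuronidase, went the other way. It measured 79.1, 79.5 and 78.4 CPM in 61Q/Q, 81.7, 81.2 and 81.7 CPM in 61P/P, 92.3, 92.6 and 87 CPM in 61H/H and 83.1, 87.2 and 86.4 CPM in 61R/R. Replicates lay close together, all 9 mutant libraries were above the wild type, and 61H/H had the highest mean. The gene rose in 61H/H (0.20 ± 0.045 (SE), adjusted p = 0.00995) and between the classes (0.13 ± 0.032 (SE), adjusted p = 0.0118), while 61R/R had 0.12 ± 0.045 (SE), adjusted p = 0.0883 and 61P/P 0.046 ± 0.045 (SE), adjusted p = 0.551. Arsb, which removes sulfate from dermatan and chondroitin sulfate, was called higher in 61P/P only (0.20 ± 0.055 (SE), adjusted p = 0.0498). This call lay at the threshold and was lost under 8 of 11 other analyses and in 9 of 12 fits without 1 library. Gla, Glb1, Neu1, Naglu and Sgsh, enzymes of galactolipids, galactosides, sialic acid and heparan sulfate, were called in no comparison, with log2 fold changes against 61Q/Q from -0.15 to 0.091. Exon bases are shared with other genes in Glb1 (7.04%, with Tmppe on the same strand) and Sgsh (22.1%, opposite Card14).

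The 6 lipid-handling enzymes and cofactors had 0 members lower in 61P/P and 3 each in 61H/H and 61R/R, and 0 higher. The 3 are 50% of the list, where 14.5% of all genes were lower in 61H/H and 9.59% in 61R/R. In 61P/P, 3.69% of all genes were lower. Lipa, the acid lipase that frees cholesterol and fatty acids from lipoprotein lipids, was at 75.1, 63.3 and 79.2 CPM in 61Q/Q, 65.8, 56.9 and 56.4 CPM in 61P/P, 57, 56.7 and 59.4 CPM in 61H/H and 60.1, 53.6 and 55.7 CPM in 61R/R. The 6 libraries of 61H/H and 61R/R were below the wild type, whereas 61P/P replicate 1 reached above 61Q/Q replicate 2. The gene fell in 61R/R (-0.36 ± 0.087 (SE), adjusted p = 0.0232) and 61H/H (-0.33 ± 0.087 (SE), adjusted p = 0.0185), with -0.28 ± 0.087 (SE), adjusted p = 0.0718 in 61P/P. Smpd1, acid sphingomyelinase, fell by less, with -0.18 ± 0.056 (SE), adjusted p = 0.0380 in 61H/H and -0.15 ± 0.04 (SE), adjusted p = 0.0202 between the classes. It held 64.2, 58.9 and 65.7 CPM in 61Q/Q, 60.7, 62.6 and 60.1 CPM in 61P/P, 55.4, 56.2 and 55.6 CPM in 61H/H and 59.9, 53.2 and 55.8 CPM in 61R/R. The 61H/H libraries were all below the wild type, and those of 61P/P overlapped it. Psap, the precursor of the saposins, fell in 61R/R (-0.28 ± 0.083 (SE), adjusted p = 0.0394) and 61H/H (-0.28 ± 0.083 (SE), adjusted p = 0.0298). Asah1, acid ceramidase, fell in 61R/R (-0.55 ± 0.14 (SE), adjusted p = 0.0257), where the libraries spread widely at 229, 190.5 and 141 CPM against 287, 246 and 287 CPM in 61Q/Q. The cholesterol carrier Npc2 and the thioesterase Ppt1 were called nowhere.

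Among the 6 membrane proteins, 4 were lower in 61H/H, 3 in 61R/R and 0 in 61P/P, and Cln3 was the 1 higher, in 61H/H. Lower were thus 66.7, 50 and 0% of the list, against 14.5, 9.59 and 3.69% of all genes. The 1 higher is 16.7% of it, against 13.8% of all genes in 61H/H. Lamp2 (chrX:38401357-38456460), which lines the membrane and serves in autophagosome fusion and chaperone-mediated autophagy, was at 347, 318 and 371 CPM in 61Q/Q, 286, 311 and 290.4 CPM in 61P/P, 256, 261 and 286 CPM in 61H/H and 293, 249.7 and 266 CPM in 61R/R. All mutant libraries fell short of the wild-type range, and 61P/P replicate 2 came nearest. The log2 fold change was -0.37 ± 0.077 (SE), adjusted p = 0.00753 in 61H/H, -0.36 ± 0.077 (SE), adjusted p = 0.0198 in 61R/R and -0.22 ± 0.077 (SE), adjusted p = 0.0918 in 61P/P. Lamp1, its more abundant relative, fell in 61R/R (-0.27 ± 0.081 (SE), adjusted p = 0.0399) and 61H/H (-0.26 ± 0.081 (SE), adjusted p = 0.0347) and had an adjusted p of 0.0534 in 61P/P at a log2 fold change of -0.29. Npc1, which exports cholesterol from the lysosome, held 82.6, 72.1 and 86.7 CPM in 61Q/Q, 70.5, 68.5 and 67.6 CPM in 61P/P, 60.4, 67.1 and 64.9 CPM in 61H/H and 72.1, 60.1 and 65.1 CPM in 61R/R. Only 61R/R replicate 1 reached the wild-type range, by a margin under the rounding, and the gene fell in 61H/H (-0.33 ± 0.081 (SE), adjusted p = 0.0147) and 61R/R (-0.29 ± 0.081 (SE), adjusted p = 0.0338). Scarb2, the receptor that carries glucocerebrosidase to the lysosome, gave 64.9, 59.9 and 64.2 CPM in 61Q/Q, 67.1, 54.9 and 54.1 CPM in 61P/P, 50.1, 52.1 and 53.8 CPM in 61H/H and 57.2, 57 and 57.7 CPM in 61R/R. It fell in 61H/H (-0.28 ± 0.076 (SE), adjusted p = 0.0218), and 61P/P replicate 1 was the highest library of all 12. The calcium channel gene Mcoln1 was called in no comparison.

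Cln3 (chr7:126571400-126584280), a lysosomal membrane protein whose loss causes juvenile Batten disease, rose in 61H/H. It was at 6.18, 9.68 and 7.33 CPM in 61Q/Q, 7.29, 8.82 and 10 CPM in 61P/P, 13.5, 13.3 and 11.1 CPM in 61H/H and 9.27, 11.8 and 13 CPM in 61R/R. The 61H/H libraries were above all wild-type and 61P/P libraries, whereas 61R/R replicate 1 lay below 61Q/Q replicate 2. Its log2 fold change was 0.71 ± 0.18 (SE), adjusted p = 0.0163 in 61H/H, 0.55 ± 0.18 (SE), adjusted p = 0.0526 in 61R/R, 0.17 ± 0.18 (SE), adjusted p = 0.589 in 61P/P and 0.54 ± 0.13 (SE), adjusted p = 0.0114 between the classes. The call in 61H/H was lost on omission of replicate 1 or 3 of 61Q/Q or replicate 1 or 2 of 61H/H (adjusted p up to 0.0651), and the call between classes held in all 12 such fits. The level is low, so that each value rests on fewer reads than those of the other membrane proteins.

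**Figure D3:**
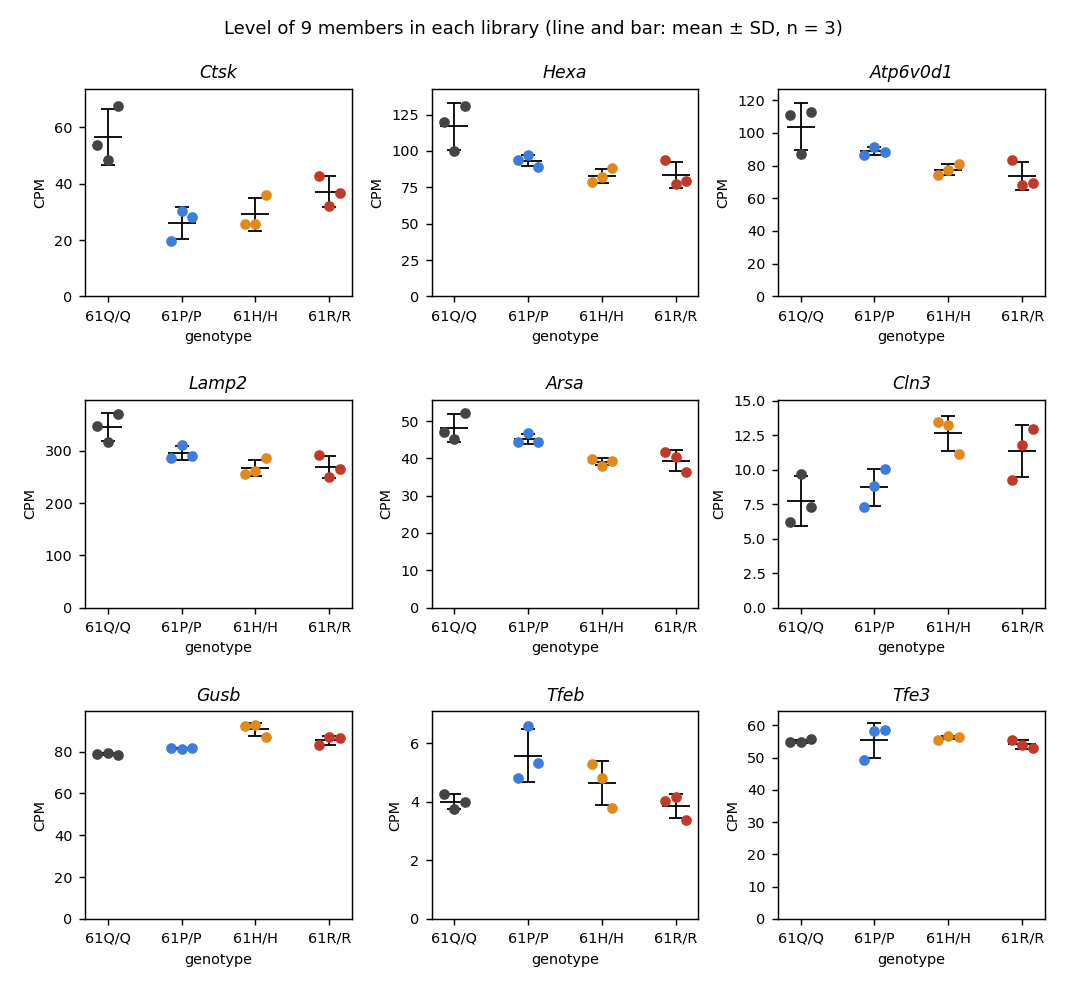
CPM of 9 members in each library (points), with the mean and SD of 3 libraries per genotype (line and bar); axes start at 0. Ctsk, Hexa, Atp6v0d1, Lamp2 and Arsa are highest in 61Q/Q, Cln3 and Gusb have their highest mean in 61H/H, Tfeb has it in 61P/P, and Tfe3 is nearly level.

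Of the 4 proton pump genes, 2 were lower in 61H/H, 3 in 61R/R and 0 in 61P/P, and 0 were higher. As shares of this short list, these are 50, 75 and 0%, against 14.5, 9.59 and 3.69% of all genes lower. Atp6v0d1 (chr8:105524470-105566040), the d subunit that couples the stalk to the proton channel, held 111, 87.2 and 113 CPM in 61Q/Q, 86.5, 91.5 and 88.3 CPM in 61P/P, 74, 77.5 and 80.9 CPM in 61H/H and 83.4, 67.8 and 69.3 CPM in 61R/R. The 61H/H and 61R/R libraries were below every wild-type library, and 61P/P overlapped with 61Q/Q replicate 2. It fell in 61R/R (-0.50 ± 0.10 (SE), adjusted p = 0.0194), in 61H/H (-0.42 ± 0.10 (SE), adjusted p = 0.0135) and between the classes (-0.35 ± 0.072 (SE), adjusted p = 0.00745), and had -0.23 ± 0.10 (SE), adjusted p = 0.183 in 61P/P. Its promoter, printed above beside that of Cln3, holds the same motif as Cln3, which rose. Atp6ap1, an accessory subunit for assembly of the pump, was at 244, 224 and 258 CPM in 61Q/Q, 182, 205 and 209 CPM in 61P/P, 191, 199 and 204 CPM in 61H/H and 210.3, 176 and 193 CPM in 61R/R. Mutant and wild-type libraries did not overlap, and the gene fell in 61R/R (-0.32 ± 0.079 (SE), adjusted p = 0.0236) and 61H/H (-0.29 ± 0.079 (SE), adjusted p = 0.0212), with -0.28 ± 0.079 (SE), adjusted p = 0.0531 in 61P/P. Atp6v1h, a regulatory subunit of the catalytic sector, fell in 61R/R (-0.30 ± 0.079 (SE), adjusted p = 0.0282). The catalytic subunit Atp6v1a was called in none, and its promoter also holds the motif.

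Neither transcription factor was called in any comparison. Tfeb measured 4.25, 3.74 and 4 CPM in 61Q/Q, 4.82, 6.58 and 5.31 CPM in 61P/P, 5.27, 4.82 and 3.80 CPM in 61H/H and 4.01, 4.16 and 3.37 CPM in 61R/R. All 3 61P/P libraries were above those of the wild type and 61R/R, and the 61H/H libraries overlapped with the others. The log2 fold change was 0.48 ± 0.16 (SE), adjusted p = 0.0813 in 61P/P, 0.21 ± 0.16 (SE), adjusted p = 0.322 in 61H/H and -0.055 ± 0.16 (SE), adjusted p = 0.825 in 61R/R, and 61R/R against 61P/P gave -0.53 ± 0.15 (SE), adjusted p = 0.0793. Tfe3 stood at 54.8, 54.9 and 55.7 CPM in 61Q/Q, 49.2, 58.3 and 58.6 CPM in 61P/P, 55.6, 56.6 and 56.6 CPM in 61H/H and 55.4, 54.1 and 52.9 CPM in 61R/R. Apart from 61P/P replicate 1, the lowest, these values were nearly level, and the log2 fold changes against 61Q/Q lay between -0.027 and 0.029. RNA levels do not report where these factors are in the cell.

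Among the 9 autophagy genes, 3 were lower in 61H/H, 2 in 61R/R and 0 in 61P/P, and 0 were higher. That makes 33.3, 22.2 and 0% of the list, against 14.5, 9.59 and 3.69% of all genes lower. Wipi1, which binds phosphatidylinositol 3-phosphate on the forming membrane, held 66.4, 50 and 65.7 CPM in 61Q/Q, 58.4, 50.5 and 48.8 CPM in 61P/P, 40.1, 42.4 and 50.3 CPM in 61H/H and 52.4, 44 and 47.3 CPM in 61R/R. The 61H/H libraries overlapped with 61Q/Q replicate 2 only, and the gene fell in 61H/H (-0.45 ± 0.12 (SE), adjusted p = 0.0208) and between the classes (-0.29 ± 0.087 (SE), adjusted p = 0.0292), with -0.34 ± 0.12 (SE), adjusted p = 0.0727 in 61R/R. Rb1cc1, the FIP200 scaffold of the ULK1 kinase complex, fell in 61R/R (-0.51 ± 0.12 (SE), adjusted p = 0.0240) and 61H/H (-0.39 ± 0.12 (SE), adjusted p = 0.0357), and 61P/P had -0.36 ± 0.12 (SE), adjusted p = 0.0906. Sqstm1, the p62 cargo receptor that is itself degraded by autophagy, fell in 61R/R (-0.33 ± 0.091 (SE), adjusted p = 0.0331) and 61H/H (-0.32 ± 0.091 (SE), adjusted p = 0.0238), and its 61P/P value was -0.32 ± 0.091 (SE), adjusted p = 0.0573. Both were below the wild type in all 9 mutant libraries. The kinase Ulk1, Becn1 of the lipid kinase complex, the conjugation genes Atg5 and Atg7, and the membrane tags Map1lc3b and Gabarapl1 were called in no comparison, with log2 fold changes against 61Q/Q from -0.26 to -0.031. In Becn1, 21.4% of exon bases lie opposite Cntd1.

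**Figure D4:**
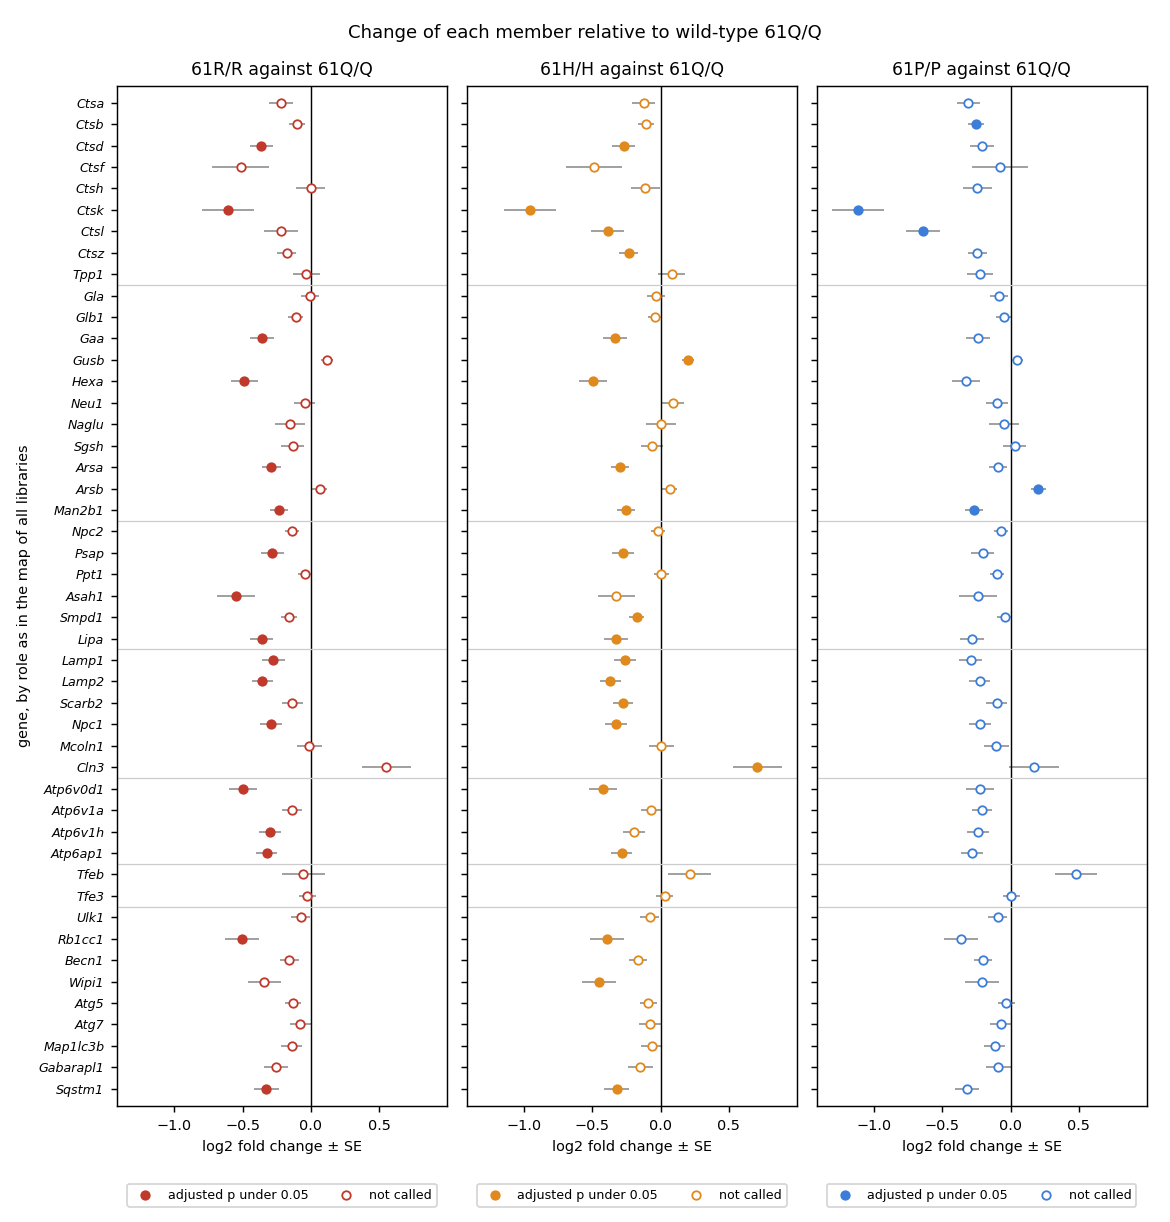
Log2 fold change (± SE) of each member against 61Q/Q, with a panel per mutant genotype (61R/R left, 61H/H middle, 61P/P right); filled points have an adjusted p under 0.05. Most points lie left of 0 in all 3 panels (44, 37 and 41 of 47), with Ctsk farthest left in each, Cln3 farthest right in 61R/R and 61H/H and Tfeb farthest right in 61P/P.

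Across roles, 15 members were called in both 61R/R and 61H/H, all of them lower. Called in 61R/R but not in 61H/H were Atp6v1h and Asah1, and the reverse held for Wipi1, Ctsl, Ctsz, Scarb2, Gusb, Smpd1 and Cln3. None of these differed between 61R/R and 61H/H when tested directly (0 of 47 called), so that the lists do not show a difference between the alleles. In all, 26 members were called in at least 1 mutant against 61Q/Q, 27 with the class contrast included, and 20 in none. The matching shares of all tested genes, also for calls in both 61R/R and 61H/H, were not counted. These comparisons share the 61Q/Q libraries, and the numbers here describe the members alone.

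Of 46 further lysosomal genes, 11 were lower (23.9%, against 9.59% of all genes) and 0 higher (against 9.43%) in 61R/R. In 61H/H, 13 were lower (28.3%, against 14.5%) and 3 higher (6.52%, against 13.8%). For 61P/P, 6 were lower (13%, against 3.69%) and 0 higher (against 3.15%). The medians of the list were -0.18, -0.14 and -0.14 in this order. Ctsc, the dipeptidyl peptidase that activates granule proteases of immune cells, held 33.2, 31.3 and 40.6 CPM in 61Q/Q, 20.4, 18.5 and 19.3 CPM in 61P/P, 15, 14.9 and 17.3 CPM in 61H/H and 27.5, 13.3 and 19.2 CPM in 61R/R. No mutant library reached the wild type, and it fell in 61H/H (-1.15 ± 0.21 (SE), adjusted p = 0.00474), 61P/P (-0.85 ± 0.20 (SE), adjusted p = 0.0367) and 61R/R (-0.81 ± 0.20 (SE), adjusted p = 0.0257). Lgmn, the asparaginyl endopeptidase, fell in 61R/R (-0.36 ± 0.072 (SE), adjusted p = 0.0194) and 61H/H (-0.34 ± 0.072 (SE), adjusted p = 0.00747), with -0.15 ± 0.072 (SE), adjusted p = 0.190 in 61P/P. Grn, progranulin, fell in all 3 mutants, by 0.47 on the log2 scale in 61H/H (adjusted p = 0.00496), 0.41 in 61R/R (0.0194) and 0.34 in 61P/P (0.0407). Idua, α-iduronidase of heparan and dermatan sulfate breakdown, was lower in the class of 61R/R and 61H/H (-0.69 ± 0.14 (SE), adjusted p = 0.00706), at 8.35, 9.02 and 10.1 CPM in 61H/H and 13, 6.60 and 11.4 CPM in 61R/R against 14.4, 16.8 and 14.1 CPM in 61P/P and 17.5, 14.2 and 17.6 CPM in 61Q/Q.

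Of 14 further proton pump genes, 13 were tested, and 3 were lower and 1 higher in both 61R/R and 61H/H, and 1 lower in 61P/P. The 3 lower are 23.1% of the list, against 9.59% of all genes for 61R/R and 14.5% for 61H/H. The 1 lower in 61P/P is 7.69%, against 3.69%. The 1 higher is also 7.69%, against 9.43% of all genes for 61R/R and 13.8% for 61H/H. The one not tested, Atp6v0c, had at most 0.0555 CPM, and 97.0% of its exon bases are shared with the pseudogene Atp6v0c-ps2 in the annotation. The gene that rose was Atp6v0e2, a small subunit of the membrane sector. It measured 9.63, 12.9 and 8.41 CPM in 61Q/Q, 7.31, 10.2 and 12.5 CPM in 61P/P, 20.8, 22.6 and 21.7 CPM in 61H/H and 16.3, 24.7 and 24.8 CPM in 61R/R. The 6 libraries of 61R/R and 61H/H were above all 6 of 61P/P and 61Q/Q. Its log2 fold change was 1.09 ± 0.22 (SE), adjusted p = 0.0194 in 61R/R, 1.07 ± 0.22 (SE), adjusted p = 0.00672 in 61H/H and -0.043 ± 0.22 (SE), adjusted p = 0.926 in 61P/P, and the difference from 61P/P was itself called in 61R/R (1.13 ± 0.22 (SE), adjusted p = 0.0279) and 61H/H (1.12 ± 0.22 (SE), adjusted p = 0.0358). Its paralog Atp6v0e fell in the same mutants (-0.33 ± 0.079 (SE), adjusted p = 0.0236 in 61R/R and -0.28 ± 0.079 (SE), adjusted p = 0.0230 in 61H/H), at 77.2, 62.3 and 77.2 CPM in 61Q/Q, 61, 58.1 and 62.7 CPM in 61P/P, 59.2, 60.4 and 58.4 CPM in 61H/H and 61.4, 55.4 and 56 CPM in 61R/R. For Atp6v0e, the 61P/P value was -0.25 ± 0.079 (SE), adjusted p = 0.0742. Tested directly, 61R/R differed from 61P/P by -0.074 ± 0.079 (SE) for this gene, adjusted p = 0.612. The pair thus moved in opposite directions in 61R/R and 61H/H, but only Atp6v0e2 was called different between these genotypes and 61P/P. Atp6v1b2, a subunit of the catalytic sector, fell in 61R/R (-0.31 ± 0.072 (SE), adjusted p = 0.0210) and 61H/H (-0.22 ± 0.072 (SE), adjusted p = 0.0394), and the accessory subunit Atp6ap2 fell in 61P/P (-0.35 ± 0.079 (SE), adjusted p = 0.0316).

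Of 36 further autophagy genes tested, 4 were lower and 0 higher in 61R/R, 6 lower and 1 higher in 61H/H, and 2 lower and 0 higher in 61P/P, with medians of -0.11, -0.058 and -0.059. The lower calls were 11.1, 16.7 and 5.56% of the list, near the 9.59, 14.5 and 3.69% of all genes. Higher calls made up 0, 2.78 and 0%, against 9.43, 13.8 and 3.15% of all genes. Atg9a, the membrane protein of the vesicles that seed autophagosomes, fell in 61H/H (-0.23 ± 0.06 (SE), adjusted p = 0.0185), and Wdfy3, a scaffold for protein aggregates, fell there as well (-0.26 ± 0.063 (SE), adjusted p = 0.0123). Gabarap, a conjugated membrane tag, fell in 61R/R (-0.23 ± 0.07 (SE), adjusted p = 0.0415). Wipi2, which recruits the conjugation machinery, was higher in 61R/R than in 61P/P (0.30 ± 0.061 (SE), adjusted p = 0.0312) and had 0.15 ± 0.061 (SE), adjusted p = 0.101 against 61Q/Q.

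Among 20 genes of mTORC1 signalling at the lysosome, 1 was lower in 61R/R, 1 lower and 2 higher in 61H/H, and 1 higher in 61P/P. The 1 lower is 5% of the list, below the 9.59% of all genes in 61R/R and 14.5% in 61H/H. The higher calls are 10% of the list in 61H/H, against 13.8% of all genes, and 5% in 61P/P, against 3.15%. Rheb, the small GTPase that activates mTORC1, fell in 61R/R (-0.35 ± 0.074 (SE), adjusted p = 0.0194) and 61H/H (-0.35 ± 0.074 (SE), adjusted p = 0.00753), with -0.21 ± 0.074 (SE), adjusted p = 0.0983 in 61P/P. Mtor, the kinase, rose in 61H/H (0.21 ± 0.059 (SE), adjusted p = 0.0243), as did Fnip2, a folliculin partner (0.73 ± 0.14 (SE), adjusted p = 0.00605). Fnip2 had 0.39 ± 0.14 (SE), adjusted p = 0.0727 in 61R/R and 0.43 ± 0.14 (SE), adjusted p = 0.0882 in 61P/P. For Fnip2, 61H/H was not called different from 61P/P (adjusted p = 0.210) or from 61R/R (adjusted p = 0.992). Mitf, a relative of Tfeb, was at 9.32, 8.88 and 7.63 CPM in 61Q/Q, 12.9, 11.6 and 11.6 CPM in 61P/P, 12.7, 10.4 and 9 CPM in 61H/H and 8.08, 8.66 and 7.75 CPM in 61R/R. The 61P/P libraries were above those of 61Q/Q and 61R/R, and the gene rose in 61P/P (0.48 ± 0.12 (SE), adjusted p = 0.0436) and was lower in 61R/R than in 61P/P (-0.56 ± 0.12 (SE), adjusted p = 0.0389). Of the calls named from these further lists, those of Ctsc, Lgmn, Grn, Atp6v0e2, Fnip2 and Rheb in 61H/H held in all 12 fits that left out 1 library, whereas those of Ctsc and Grn in 61P/P held in 4 and that of Mitf in 61P/P in 5.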

How the data were processed

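RNA was sequenced from 12 MEF libraries, 3 per Nras genotype (Ribo-Zero depletion, TruSeq stranded kit). The authors used STAR for alignment to mm10 and Picard 2.17.11 for duplicate marking, and deposited featureCounts raw counts per gene, with the gene length in bases; the strand setting is not given in the sources used here. The deposited DESeq-normalised table was not used. Groups were taken from the sample labels. Counts were analysed in R 4.3.3 with edgeR 4.0.16: filterByExpr by genotype, TMM, and a quasi-likelihood fit of all 12 libraries, with Benjamini-Hochberg adjustment over all 15759 genes and a threshold of 0.05, for 7 comparisons. CPM used TMM-scaled totals, and RPKM the deposited length. P-values measure the spread between lines. Alternatives were other scalings and filters, DESeq2 1.42.0, limma-voom (limma 3.58.1), a replicate block, a fit per pair of genotypes, a 1.5-fold minimum, and leaving out libraries. Per-library values are printed for the 15 members with the smallest adjusted p and for Tfeb and Tfe3, and up to 4 genes are named per further list. The members and lists were chosen with earlier results of these data known. The scripts were tested on simulated data.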

Additional observations from a re-analysis of the deposited data

Results flagged for a closer look

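No member met a rule for a closer look, but 5 genes of the further pathway lists did, because their change relative to 61Q/Q differed between 2 mutant genotypes in edgeR's test of that difference. Atp6v0e2 was higher by 1.13 ± 0.22 (SE) on the log2 scale in 61R/R than in 61P/P (adjusted p = 0.0279) and by 1.12 in 61H/H than in 61P/P (adjusted p = 0.0358). Wipi2 was higher by 0.30 ± 0.061 in 61R/R than in 61P/P (adjusted p = 0.0312). For Mitf, the difference of 61R/R from 61P/P was -0.56 ± 0.12 (adjusted p = 0.0389). Laptm4b, a lysosomal membrane protein, was higher by 0.45 ± 0.10 in 61R/R (adjusted p = 0.0417) and by 0.45 in 61H/H (adjusted p = 0.0494) than in 61P/P. Vps11, a subunit of the tethering complexes of late endosomes, was higher by 0.30 ± 0.060 in 61H/H than in 61P/P (adjusted p = 0.0358). Laptm4b and Vps11 fall outside the naming rule and were chosen after their values were seen. Of 12 fits that each left out 1 library, the call held in 8 and 5 for Atp6v0e2 (61R/R and 61H/H against 61P/P), 7 for Wipi2, 6 for Mitf, 4 and 3 for Laptm4b and 4 for Vps11.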

How the results depend on the processing

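No called change named in the report reversed its direction in any setting tried. Changes that were not called were not checked for this. A fit of only the genotypes compared called 0 members in 61R/R and 1 in 61P/P against 61Q/Q. It called 0 of 15375 tested genes in 61R/R and 478 of 15312 in 61P/P. A minimum change of 1.5-fold left 2 members each in 61P/P and 61H/H, 1 in 61R/R and 0 between the classes. Of all 15759 genes, it left 597, 2013, 1229 and 1342, in the same order. For 61P/P, 9 members were called with at least 1 CPM required in all libraries and 15 by DESeq2. Over all genes, these settings called 1098 of 11789 and 2412 of 15759. Against 61P/P, DESeq2 called 4 members in 61H/H and 2 in 61R/R, where it called 1852 and 1670 of all 15759 genes. Omission of both replicate 1 of 61R/R and replicate 2 of 61Q/Q, chosen after seeing the data, gave 25 calls in 61P/P and 30 in 61R/R against 61Q/Q, 24 between the classes, and, against 61P/P, 9 in 61R/R and 4 in 61H/H. With replicate 1 of 61P/P omitted too, the numbers were 31 in 61H/H, 35 in 61R/R and 28 in 61P/P, 28 between the classes, and, against 61P/P, 13 in 61R/R and 3 in 61H/H. With the wild type kept whole and both mutant libraries omitted, 2 members were called in 61R/R against 61P/P, beside 1211 of 15891 genes. Leaving out each library in turn gave 0 to 28 member calls in 61R/R, 5 to 26 in 61H/H and 0 to 22 in 61P/P against 61Q/Q, 6 to 23 between the classes, and 0 to 2 in 61R/R against 61P/P. Over all genes, the calls ranged from 0 to 4538, 1879 to 5490, 0 to 2397, 2644 to 5769 and 0 to 1465. With the replicate block, 21 members were called in 61H/H, 16 in 61R/R and 3 in 61P/P, beside 4551, 3158 and 990 of all 15759 genes. The cause of these shifts was not tested. Same-numbered libraries correlated at -0.078 to 0.34, over 0.1 in 6 of 18 pairs. Whether some same-numbered libraries share a batch was not tested.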
